A study of Mus musculus with 50 samples.

Results

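The genes of the kainate-type glutamate receptor subunits, Grik1 to Grik5, and of the delta-type subunit Grid1 were examined in RNA from the mouse hippocampus. Members were the probes of the Agilent arrays whose gene symbol, found through the RefSeq accession of the probe or in brackets in its description, is one of these 6 names. The rule found 5 probes of 5 genes among 41174 probes, 1 probe each for Grik1, Grik2, Grik4, Grik5 and Grid1, and none for Grik3. A further 4 probes bear no symbol and were identified from their description alone, 1 for Grik1, 1 for Grik2 and 2 for Grik3, the last under the older name glutamate receptor 7. These 4 lie outside the rule and are given beside the members.

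The series holds 50 samples on 5 platforms, of which the Agilent arrays were used. Groups were 5 wild-type (WT) male C57/BL6j mice and 5 transgenic (TG) males on the same background that over-express δC-DCLK-short, a constitutively active splice variant of doublecortin-like kinase 1. Promoter, transgenic line and age are not given in the sources used here. Both hippocampi of a mouse, which had been housed alone, were pooled, so a value mixes all hippocampal fields and all cell types, and fewer cells of a type cannot be told apart from less RNA per cell. Each of the 10 Agilent arrays compared 1 WT with 1 TG mouse, and each mouse was on 2 arrays, once in Cy3 and once in Cy5, with a different partner each time. WT was in Cy3 on 5 arrays and TG was in Cy3 on the other 5. Arrays are named by their labelled pair of mice, such as WT1/TG4.

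Kainate receptors are glutamate-gated cation channels of 4 subunits. GluK1, GluK2 and GluK3, encoded by Grik1, Grik2 and Grik3, form channels alone, whereas GluK4 and GluK5, encoded by Grik4 and Grik5, bind agonist with high affinity and need one of the former to form a channel. In the hippocampus, kainate receptors are best known at the mossy fibre synapses of dentate granule cells on CA3 pyramidal cells and in interneurons. GluD1, encoded by Grid1, is related in sequence, and is known less as a glutamate-gated channel than as a synaptic organizer that binds secreted cerebellins and, through them, presynaptic neurexins.

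The direction of every log ratio depends on the labels, and this direction, as labelled, is opposite to that of the study. If the arrays of one dye orientation are exchanged with those of the other, replicate by replicate, each array log ratio turns its sign and keeps its size. Log ratios centred within each dye orientation were correlated over 33793 probes between arrays of opposite orientation. As labelled, 10 array pairs that share a mouse had a median Pearson correlation of 0.0516, against -0.077 for 15 pairs that share none. After the exchange the medians were 0.408 and -0.134. Higher and lower are used as labelled. The exchange would change not only mouse names but also which array channels are averaged for a mouse. Per-mouse values are therefore in doubt too, and are given as labelled unless stated. If the labels are wrong, such a value may average channels of different mice.

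The 4 probes of Dclk1, the gene of the transgene's product, had mean log2 TG over WT between -0.085 and -0.056, with FDR from 0.492 to 0.729. Where these probes lie relative to the transgene is not given in the sources used here, so they check the labels in neither direction. Hippocampal markers were detected, with signals above the negative control limit described next for 4 of 4 CA1 genes, 4 of 4 CA3 genes and both dentate granule cell genes on the array. The same held for the 4 choroid plexus and the 4 thalamus genes. Across all 41174 probes the median log2 ratio was 0.0023, and the SD of the log ratios of an array lay between 0.138 and 0.384. It was highest on WT3/TG4, at 0.384, and next on WT1/TG4, at 0.321. These arrays share mouse TG4 as labelled, and they would share WT5 after the exchange.

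All 5 members and all 4 described probes were present, which means that neither channel of any of the 10 arrays fell below the 95th percentile of 314 negative controls. The same held for 33793 of all 41174 probes, so presence does not set these probes or the marker genes apart. Signals are mean pixel intensities without background correction. The margin over the negative controls was small for most of them. In the channel where it was lowest, the signal was 1.36 times that limit for the Grik1 member, 1.17 times for Grik2 and 1.18 times for Grid1. It was 3.81 times the limit for Grik4 and 5 times for Grik5. For the first 3 of these probes, background takes a large share of the signal, and without background correction it can draw a log ratio towards 0. How far it did so here was not tested. The scanner software set its flag for well above background in all 20 channels of every probe except the Grik3 probe A_51_P258348, which had it in 16 of 20. No spot of these probes was saturated.

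**Figure D1:**
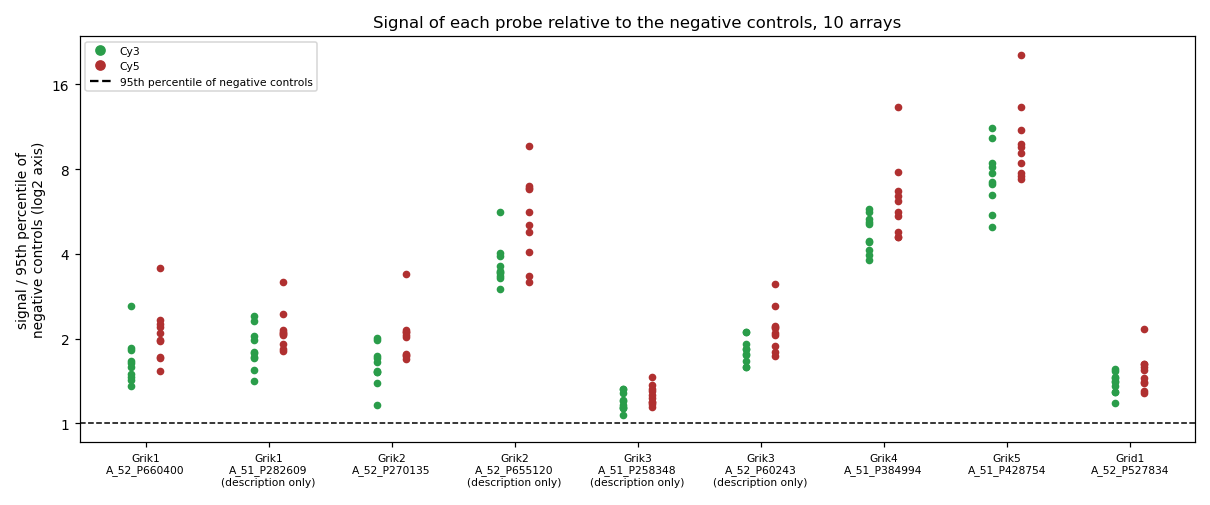
Signal of each probe divided by the 95th percentile of the negative controls of the same array and channel, on a log2 axis, with 1 point per array in Cy3 (green) and Cy5 (red). All points lie above 1, and those of the Grik3 probe A_51_P258348 lie closest to it, down to 1.07.

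With the 10 arrays as observations, 2 of the 5 members were DEGs at 10% FDR, Grik1 higher and Grik2 lower in TG as labelled. This was close to the limit for both. Among all probes 3053 were DEGs, which is 7.41%, with 3.66% higher and 3.76% lower. The mean change was small, 11.6% for Grik1 and -8.93% for Grik2. In contrast, with 1 value per mouse no member was a DEG, whereas 24 of all probes (0.0583%) were as labelled and 11 (0.0267%) after the exchange. The 10 arrays are not independent, because each mouse is on 2 of them, and the array fit takes them as if they were.

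The Grik1 member A_52_P660400, designed on the Grik1 mRNA, is placed by the deposited files at chr16:87071328-87071387 on the minus strand, in a genome build that the files do not name. On the 10 arrays its log2 ratio was lowest at -0.15, on WT4/TG3, had a median of 0.19 and was highest at 0.35, on WT1/TG2. It was above 0 on 8 of 10 arrays. The mean was 0.16 ± 0.047 (SE, n = 10 arrays, with SD 0.16), with a 95% confidence interval from 0.055 to 0.26 and an FDR of 0.0915 by limma. In raw Cy3 signal the spot was between 97.2 and 169.

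Per mouse, the normalized log2 signal of this Grik1 probe was 6.56 in WT1, 6.42 in WT3, 6.59 in WT4, 6.62 in WT5 and 6.68 in WT6. It was 6.83 in TG1, 6.88 in TG2, 6.72 in TG3, 6.64 in TG4 and 6.59 in TG5. TG1, TG2 and TG3 lay above every WT mouse, and TG4 and TG5 lay within the WT range. The means were 6.58 ± 0.099 (SD, n = 5) in WT and 6.73 ± 0.12 (SD, n = 5) in TG, with p = 0.0635 in an exact two-sided permutation test over all splits of the mice. Adjusted over the 9 probes tested in this way, this was 0.179.

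The second Grik1 probe, A_51_P282609, was designed on a cDNA clone whose RIKEN name is a synonym of Grik1 and lies at chr16:87053241-87053300 on the minus strand in the same unnamed build. Its log2 ratio had a mean of 0.11 ± 0.06 (SE, n = 10 arrays, FDR = 0.338 by limma), with values from -0.27 on WT6/TG1 to 0.41 on WT3/TG4. Both Grik1 probes were above 0 on 8 of 10 arrays, but with the same sign on only 6. WT6/TG1 was second highest for the first probe, at 0.31, and lowest for the other. The mean difference between the 2 probes was 0.044 ± 0.33 (SD, n = 10 arrays), and over mice it did not pass an exact permutation test (p = 0.754, the same after adjustment over the 3 genes with 2 probes). The 2 means had the same direction.

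The Grik2 member A_52_P270135, designed on the Grik2 mRNA, lies at chr10:49316127-49316186 on the minus strand in the unnamed build. Its log2 ratio was lowest at -0.33, on WT5/TG1, had a median of -0.15 and was highest at 0.12, on WT4/TG2, the only array above 0. The mean was -0.13 ± 0.041 (SE, n = 10 arrays, with SD 0.13), with a 95% confidence interval from -0.22 to -0.045 and an FDR of 0.0961 by limma. It was -0.066 on the arrays with WT in Cy3 and -0.2 on those with TG in Cy3.

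Per mouse, this Grik2 probe measured 6.58 in WT1, 6.72 in WT3, 6.53 in WT4, 6.79 in WT5 and 6.79 in WT6 on the log2 scale. It measured 6.56 in TG1, 6.67 in TG2, 6.47 in TG3, 6.48 in TG4 and 6.56 in TG5. WT3, WT5 and WT6 lay above every TG mouse, and WT1 and WT4 lay among the TG mice. The means were 6.68 ± 0.12 (SD, n = 5) in WT and 6.55 ± 0.083 (SD, n = 5) in TG, and the exact two-sided permutation test gave p = 0.0794 (0.179 adjusted over 9 probes).

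The second Grik2 probe, A_52_P655120, was designed on a cDNA clone described as the same subunit and lies at chr10:49283881-49283940 on the minus strand. It had the most negative mean of the 9 probes, -0.28 ± 0.087 (SE, n = 10 arrays, with SD 0.3), and an FDR of 0.102 by limma put it just past the limit. It passed the limit in 5 of 16 other settings of processing or model, against 11 for the Grik1 member and 9 for the Grik2 member. Its lowest FDR, 0.0459, came with the WT mouse as a replicate block, where a negative estimated correlation (-0.248) narrows the standard error. It also passed in 4 of the 20 refits without an array or a mouse. Its values ran from -0.92 on WT3/TG4 to 0.061 on WT1/TG2, with 8 of 10 below 0. Per mouse, it was 7.77 in WT1, 8.22 in WT3, 8.16 in WT4, 8.13 in WT5 and 7.95 in WT6, and 7.78 in TG1, 7.92 in TG2, 7.97 in TG3, 7.39 in TG4 and 7.79 in TG5. TG4 was lowest of all mice, and WT1 and WT6 lay within the TG range. The exact permutation test gave p = 0.0714 (0.179 adjusted over 9 probes). The 2 Grik2 probes had the same sign on 7 of 10 arrays, and the difference between them over mice gave p = 0.294 in an exact permutation test (0.679 adjusted over 3 genes).

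Both Grik3 probes lie on the plus strand, A_52_P60243 at chr4:124676851-124676910 and A_51_P258348 at chr4:124735123-124735182. The mean of the first was 0.015 ± 0.028 on the log2 scale (SE, n = 10 arrays, FDR = 0.855 by limma), with a 95% confidence interval from -0.045 to 0.076. The other had -0.046 ± 0.035 (SE, n = 10 arrays, FDR = 0.557 by limma), with values from -0.15 to 0.18. All 5 arrays with WT in Cy3 were below 0 for this probe, with a mean of -0.11, and the mean of those with TG in Cy3 was 0.022. The upper bounds of both intervals, 0.076 and 0.031, lie below the mean of the Grik1 member. The interval of that member, from 0.055 to 0.26, overlaps that of A_52_P60243 but not that of A_51_P258348. In its lowest channel A_51_P258348 was at only 1.07 times the negative control limit. A difference between the genes was not tested.

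**Figure D2:**
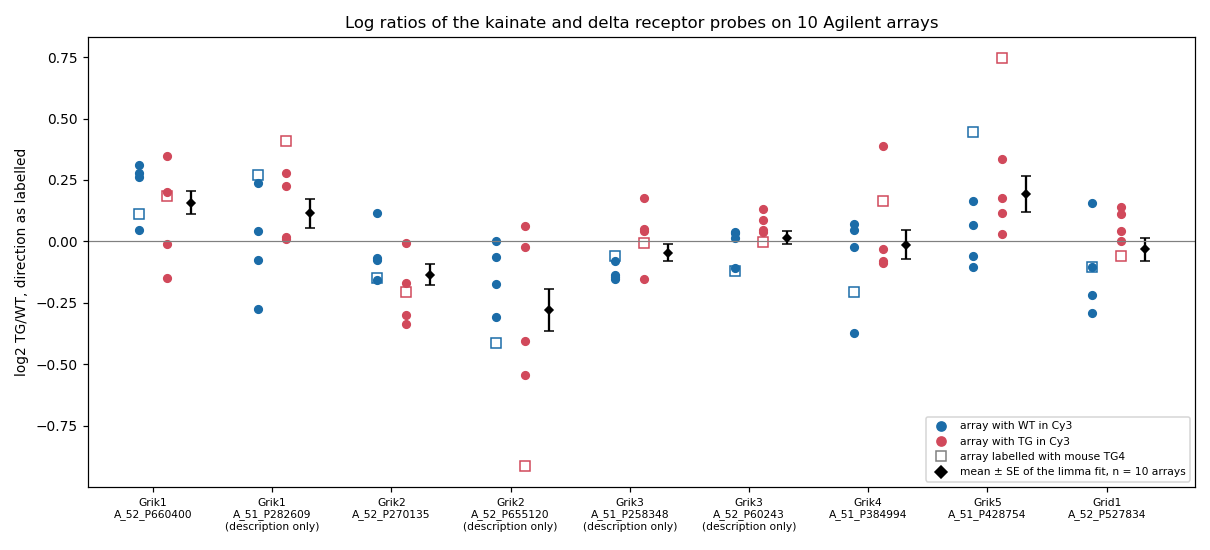
Log2 ratio of TG over WT, as labelled, of the 9 probes on each array with WT in Cy3 (blue) or TG in Cy3 (red); open squares are the arrays labelled with mouse TG4, and black diamonds with bars are the mean ± SE of the limma fit over 10 arrays. The squares hold the highest Grik5 values, 0.45 and 0.75, and the lowest value of the described Grik2 probe, -0.92.

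Grik5, the gene of the more widely expressed high-affinity subunit, had the largest mean above 0 but did not pass the limit. Its member A_51_P428754 lies at chr7:20188792-20188851 on the minus strand in the unnamed build. The log2 ratio was lowest at -0.11, on WT6/TG1, had a median of 0.14, and was highest at 0.75, on WT3/TG4, and 0.45, on WT1/TG4. The mean was 0.19 ± 0.074 (SE, n = 10 arrays, with SD 0.26; FDR = 0.179 by limma), and 8 of 10 arrays were above 0. Without both arrays of TG4 the mean was 0.09 (FDR = 0.394 by limma).

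Per mouse, the log2 signal of Grik5 was 8.74 in WT1, 8.72 in WT3, 8.8 in WT4, 8.81 in WT5 and 8.81 in WT6. It was 8.85 in TG1, 8.74 in TG2, 8.97 in TG3, 9.31 in TG4 and 8.97 in TG5. TG1, TG3, TG4 and TG5 lay above every WT mouse, TG2 lay among them, and the spread was wider in TG (SD 0.21) than in WT (SD 0.041). The exact two-sided permutation test gave p = 0.0635 as labelled and p = 0.0238 with the mice reassigned by the exchange, where the direction is the opposite. Adjusted over the 9 probes these were 0.179 and 0.214.

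The arrays of TG4 also stood apart in oligodendrocyte markers, and WT1/TG4 was low in most other marker lists too. The mean log2 ratio of the 3 oligodendrocyte markers Mbp, Mog and Mobp was -0.96 on WT1/TG4 and -0.87 on WT3/TG4, and between -0.4 and 0.12 on the other arrays. Their summed level lay between 3052 and 4307 in the WT mice and between 1474 and 3470 in the TG mice, on the normalized intensity scale. Of the 3 genes, Mbp, a main protein of myelin, was lower at 10% FDR (log2 ratio -0.51 ± 0.15 SE, FDR = 0.0841 by limma). Mobp did not follow, at 0.041 (FDR = 0.818). Each of the 3 genes had a probe above the negative control limit on all arrays. WT1/TG4 was also the lowest array for the mean of the CA3, interneuron, thalamus, choroid plexus, astrocyte, microglia and blood genes. WT3/TG4 was above 0 for the interneuron (0.22), microglia (0.13) and choroid plexus (0.037) genes. The part of the oligodendrocyte or other markers, or of TG4's RNA as a whole, in the values of Grik5 and Grik2 was not tested.

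**Figure D3:**
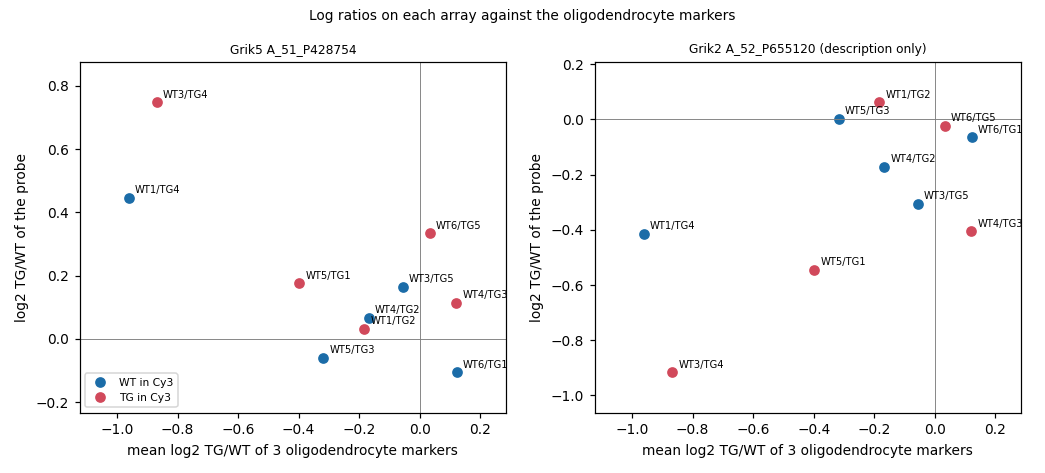
Log2 ratio of TG over WT, as labelled, of the Grik5 member (left) and the described Grik2 probe (right) on each array, against the mean log2 ratio of 3 oligodendrocyte markers on the same array; colours give the dye orientation. Both arrays labelled with TG4 lie at the left edge, at -0.96 and -0.87, apart from the other arrays.

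Grik4 encodes the other high-affinity subunit, which is concentrated in CA3. Its member A_51_P384994 lies at chr9:42479335-42479394 on the minus strand. The log2 ratio had a mean of -0.013 ± 0.06 (SE, n = 10 arrays, with SD 0.21; FDR = 0.952 by limma) and ran from -0.37, on WT4/TG2, to 0.39, on WT4/TG3. The 95% confidence interval, from -0.14 to 0.12, still holds changes of the size of the Grik2 member. Per mouse, Grik4 was 7.97 in WT4 and 7.9 in TG2, and between 8.22 and 8.31 in the other WT and 8.23 and 8.31 in the other TG mice. These 2 mice shared the array WT4/TG2.

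Grid1 was measured by A_52_P527834, whose deposited coordinates, chr14:33650136-33691868 on the plus strand, span 41733 bases. Those of each other probe span 60 bases. The log2 ratio had a mean of -0.032 ± 0.046 (SE, n = 10 arrays, with SD 0.15; FDR = 0.802 by limma) and ran from -0.29, on WT5/TG3, to 0.16, on WT6/TG1. It was above 0 on 5 arrays and below 0 on the other 5. With WT in Cy3 the mean was -0.11 and with TG in Cy3 it was 0.048, a change of sign with the dye also found in Grik4, at -0.098 and 0.071. The lowest mouse was TG4, at 6.09, and all others lay between 6.22 and 6.41.

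For none of the 9 probes were the WT and TG mice fully apart, either as labelled or after the exchange. Among all probes this was so for 2.09% as labelled and 1.57% after the exchange. Unadjusted limma p-values with 1 value per mouse as labelled were 0.0407 for the Grik1 member, 0.0401 for the described Grik2 probe, 0.0589 for Grik5 and 0.0602 for the Grik2 member, and the FDR over all probes lay between 0.58 and 1 for the 9 probes.

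**Figure D4:**
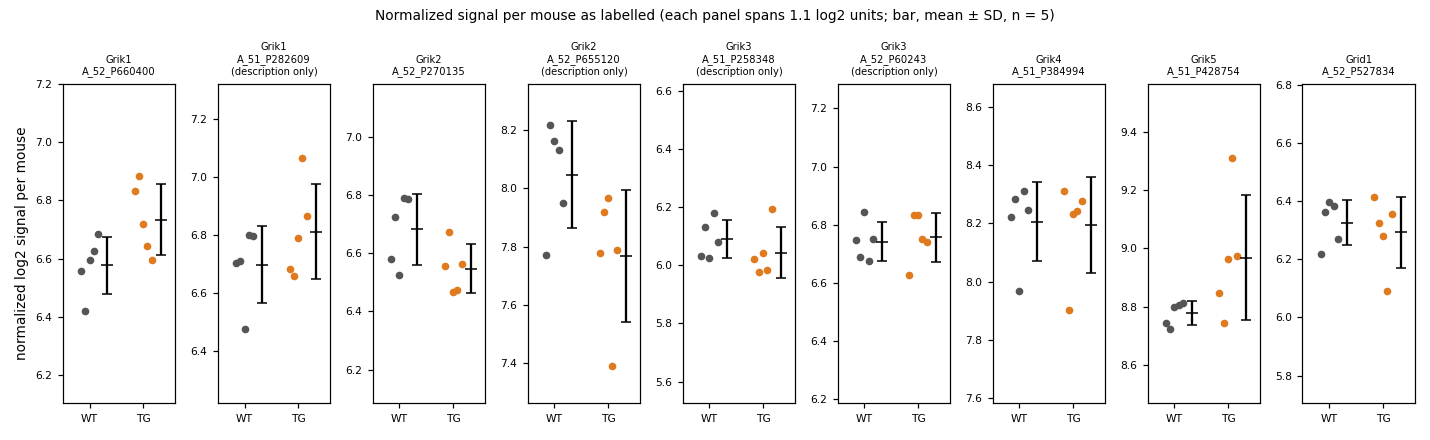
Normalized log2 signal of each mouse, as labelled, for the 9 probes, with 5 WT (grey) and 5 TG (orange) mice per panel and the mean ± SD as a bar; each panel spans the same range on the log2 scale. WT and TG mice overlap in every panel, and the TG mouse at 9.31 in the Grik5 panel is TG4.

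Leaving out 1 array, or both arrays of 1 mouse, left at most 1 of the 2 calls in each of 20 refits, and none in 14 of them. The Grik1 member stayed a DEG in 3 of the 20, without array WT4/TG3, array WT6/TG5 or mouse TG3. The Grik2 member also did in 3, without array WT4/TG2, array WT1/TG2 or mouse TG2. Their means kept their sign in all 20, between 0.12 and 0.19 for Grik1 and between -0.18 and -0.11 for Grik2. Without TG4 the FDR was 0.174 for Grik1 and 0.228 for Grik2. Of the members, the arrays with WT in Cy3 alone called Grik1 (FDR = 0.0863) and not Grik2. Of the described probes they called the Grik3 probe A_51_P258348 (log2 ratio -0.11, FDR = 0.0891), which was not called in the fit of all arrays. Those with TG in Cy3 alone called neither Grik1 nor Grik2 (FDR = 0.366 for Grik1 and 0.101 for Grik2, all by limma).

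**Figure D5:**
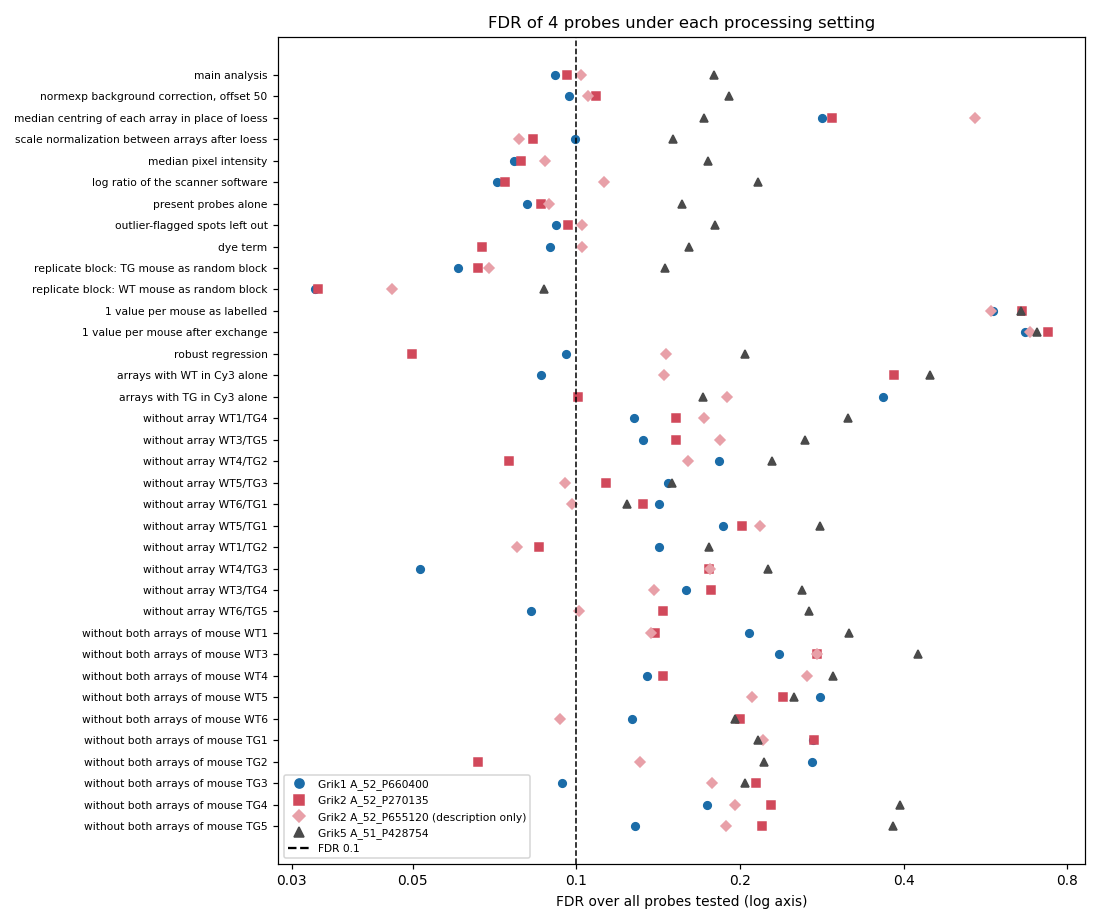
FDR over all probes, on a log axis, of the Grik1 and Grik2 members, the described Grik2 probe and the Grik5 member under each processing setting and with each array or mouse left out; the dashed line is an FDR of 0.1. In the main analysis Grik1 (0.0915) and Grik2 (0.0961) lie just left of the line, and with 1 value per mouse all 4 probes lie far to its right.

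Genes of proteins that work with kainate receptors were compared at the gene level, with the probes of a gene averaged. Of 15 listed genes 14 were on the array, and 2 of these, C1ql2 and Cask, were lower and none higher at 10% FDR. An unadjusted p of 0.05 or less was found for 6 of the 14, 5 of them lower, against 19% of all genes. Among all 34643 genes and unnamed probes 8.17% were DEGs, 4.04% higher and 4.13% lower. The median log2 ratio of the list was -0.096, with 10 of 14 genes below 0. C1ql2 encodes a secreted protein of dentate granule cells that binds GluK2 and GluK4 receptors at mossy fibre synapses. Its log2 ratio was -0.3 ± 0.05 (SE, n = 10 arrays, FDR = 0.0142 by limma), and it was below 0 on all 10 arrays, from -0.57 to -0.097. With 1 value per mouse its FDR was 0.244, and 0.0837% of all genes were DEGs. The related C1ql3 was at -0.26 and just missed the limit (FDR = 0.1004 by limma). Cask, a scaffold kinase of the synapse, was lower by a small amount, with a log2 ratio of -0.099 ± 0.03 (FDR = 0.0894 by limma).

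Several well-known partners were not DEGs. Neto1, an auxiliary subunit of kainate receptors, was at -0.078 ± 0.085 (SE, n = 10 arrays, FDR = 0.73 by limma). Adarb1, the editing enzyme of the Grik1 and Grik2 transcripts, was at -0.093 (FDR = 0.247), and Snap25, a protein of the release machinery, was at -0.4, with arrays from -1.49 to 0.22 (FDR = 0.182).

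Of 10 genes of delta receptor partners 9 were on the array and none was a DEG by limma, with 2 at an unadjusted p of 0.05 or less, against 19% of all genes. Cbln1, a cerebellin that bridges delta receptors to neurexins, was at 0.24 ± 0.1 on the log2 scale (SE, n = 10 arrays, FDR = 0.204 by limma). The median of the list was 0.032. Among the other ionotropic subunits, of AMPA and NMDA receptors, 10 of 11 were on the array. None of these was a DEG by limma, 2 had an unadjusted p of 0.05 or less, and the log2 ratios ran from -0.24 for Grin1 to 0.14 for Grin2c, with a median of -0.068.

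The marker genes of CA3, where Grik4 and the postsynaptic side of the mossy fibre synapse are found, were lower in part. Bok, a BCL2-family gene used here as a CA3 marker, was at -0.42 ± 0.049 (SE, n = 10 arrays, FDR = 0.00354 by limma) and below 0 on all 10 arrays. The other 3 markers, Iyd, Nectin3 and Cpne4, were between -0.084 and -0.019 and were not DEGs. The summed level of the 4 genes lay between 1857 and 2040 in the WT mice and between 1552 and 1775 in the TG mice as labelled, without overlap. After the exchange the groups overlapped, and without Bok the sum of the other 3 genes overlapped under both assignments. The mean log2 ratio of the 4 genes was lowest on the arrays of TG4, at -0.37 on WT1/TG4 and -0.32 on WT3/TG4. This was not particular to CA3. The same arrays were lowest for the CA1 (-0.1 and -0.11), thalamus (-0.24 and -0.14) and oligodendrocyte genes. No CA1 or dentate granule cell marker was a DEG. The part of the CA3 genes in the member values was not tested.

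Among interneuron markers, Npy was higher (log2 ratio 0.46 ± 0.12 SE, FDR = 0.0595 by limma) and the other 5 were not DEGs. Gad1 went the other way, at -0.13, and just missed the limit (FDR = 0.1005 by limma). Gad2, Sst, Pvalb and Vip lay between 0.063 and 0.35. Of the 4 astrocyte genes, Aqp4, a water channel, was higher at 0.3 (FDR = 0.0674). The other 3 were not DEGs, at -0.15 for Gfap (FDR = 0.128), -0.056 for Aldoc and 0.16 for Slc1a3. At the same limit, Alas2, of the 2 blood genes on the array, was lower at -0.13 (FDR = 0.0954). None of the thalamus, choroid plexus and microglia genes was a DEG. These calls rest on the 10 arrays as observations. With 1 value per mouse none of the marker genes was a DEG, with FDR of 0.11 for Bok, 0.666 for Mbp, 0.39 for Npy, 0.321 for Aqp4 and 0.408 for Alas2 by limma.

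For each gene with a member probe, the 3 named genes with the most similar pattern were taken from 16775, by Pearson correlation over the 20 normalized channels centred per dye. For Grik5 these were Eno2 (0.945), Ints1 (0.927) and Tle5 (0.915), and for Grik1 they were Cd3eap (0.892), Cenpj (0.891) and Tbata (0.888). Grik2 was closest to Folh1 (0.863), Pms1 (0.847) and Sema3c (0.841). For Grik4, Ifitm7 (0.809), Tmem45a (0.801) and Cd82 (0.796) were found, and for Grid1, Cdc37 (0.816), Phyhipl (0.79) and Dnajb1 (0.788). Both channels of a spot share an array and both channels of a mouse share its RNA, so the 20 points are not independent. The correlations among the members ran from -0.429 between Grik2 and Grik5 to 0.173 between Grik2 and Grik4.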

How the data were processed

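For the Agilent arrays, the authors extracted Cy3 and Cy5 spot intensities (mean and median of the pixels) with Agilent Feature Extraction 8.5.1.1 and deposited them without normalization, with quality flags and a log10 ratio that the software had background-corrected and dye-normalized. Here, R 4.3.3 and limma 3.58.1 were used. Loess normalization was applied to the mean intensities of each array with no background subtracted, control spots had weight 0, and 41534 spots were averaged to 41174 probes. An intercept model was fitted to the log2 ratios of TG over WT, with the Benjamini and Hochberg adjustment over all probes. An FDR of 0.1 or less defined a DEG. Per-mouse values are means of both channels of a mouse, assigned as labelled or after the exchange, after loess and Aquantile normalization.

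Symbols came from RefSeq accessions for 22072 probes and from descriptions for 1235. The named genes were all members with every probe, list genes past the limit (at most 5 of a list with the smallest p), the 3 most similar genes of each member, and Dclk1. Genes in a list without a call were named as examples after their values were seen. Members, lists and tests were chosen with earlier results of these data known. Arrays are technical repeats of 10 mice, and their number limits the precision. All arrays have 1 scan date and a slide each. ABI identifiers named no member. The Illumina table's 80 per-sample columns could not be paired with mice and were not used. Some list genes are not reported here and were left out of their lists. Samples of the other platforms were not analysed here. Scripts were tested on simulated data.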

Additional observations from a re-analysis of the deposited data

Results flagged for a closer look

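With the mice as labelled, the Grik4 probe A_51_P384994 had 1 mouse far from the others in each genotype, by Dixon's test at the 95% level. WT4 was at 7.97 on the log2 scale, with the nearest other WT mouse at 8.22, and TG2 was at 7.9, with the nearest other TG mouse at 8.23. As labelled, WT4 and TG2 were hybridized to 1 array together, and each was also on a second array. Of 45 groups of mice or arrays tested over the 9 probes, these 2 were past the critical value, and chance gives about 1 in 20. After the exchange the gaps were smaller. WT4 was then at 7.98, with the nearest other WT mouse at 8.16, and TG2 at 8.08, with the nearest other TG mouse at 8.17. Dixon's test was not run on the mice after the exchange.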

How the results depend on the processing

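The direction of the Grik1, Grik2 and Grik5 probes was the same under all alternatives run, apart from the turn of sign that the exchange itself brings, and the calls were not. Of 5 members (2 called), 1 was called after normexp background correction with an offset of 50, 0 with median centring of each array, 0 with 1 value per mouse as labelled or after the exchange, 0 at an FDR of 0.05, 1 on arrays with WT in Cy3 alone and 0 on those with TG in Cy3 alone. At the gene level these counts were 2, 0, 0, 0, 0, 1 and 1. Leaving out arrays or mice gave 0 to 1 for probes and genes. All probes called numbered 1335 with median centring, 92.3% of them higher against 49.3% in the main analysis, 24 and 11 per mouse, 1203 at an FDR of 0.05, and between 282 (without WT4) and 3404 (without array WT6/TG1) when arrays or mice were left out. Partner genes called (2) were 0 with median centring and per mouse, 1 at an FDR of 0.05, 4 with robust regression, 4 in each dye orientation alone, and between 1 and 4 when arrays or mice were left out.

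With the TG mouse as a replicate block, 2 members, 5 partner genes and 4526 probes were called. With the WT mouse as a replicate block, 3 members, 8 partner genes and 5969 probes were called. The third member was Grik5 (FDR = 0.0874). The estimated correlations of both arrays of a mouse were negative, -0.14 and -0.248, which narrows the standard errors of these fits. With the scanner's log ratio, the Grik1 and Grik2 members had larger log2 ratios, 0.32 and -0.26, against 0.158 and -0.135 in the main analysis. That ratio differs from the main analysis in dye normalization as well as in background correction. With normexp background correction they were slightly smaller, 0.149 and -0.128. The Grik5 difference over mice, 0.19, had p = 0.0635 as labelled and p = 0.0238 after the exchange by the exact permutation test, 0.179 and 0.214 adjusted.

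The sign turned in values past no limit. Grik4 was 0.056 with median centring, 0.071 on arrays with TG in Cy3 alone, and between -0.074 and 0.0403 when arrays or mice were left out, above 0 without arrays WT1/TG4 or WT4/TG2 or mice WT1 or TG2. On the arrays with TG in Cy3 alone, Grid1 was 0.048 and the Grik3 probe A_51_P258348 was 0.022. The Grik3 probe A_52_P60243 was -0.029 on those with WT in Cy3 alone. The causes were not tested. A block for slide or scan date was not run, since all arrays have 1 scan date and each its own slide, and alternatives for ABI were not run, since no member could be named there. Signals near the negative control limit restrict what the Grik1, Grik3 and Grid1 probes and the Grik2 member can show.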
